A study of Mus musculus with 2 samples.

Results

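The clustered protocadherins are described here in 2 mouse midbrains of embryonic day 14.5, each sequenced as 1 total RNA library. The members are all protein-coding genes whose symbol begins with Pcdha, Pcdhb or Pcdhg, and there were 57 of them among 43346 gene rows with an Ensembl identifier, 21474 of them protein-coding. The alpha cluster holds 14 members, the beta cluster 22 and the gamma cluster 21. Pcdhgb8 stayed outside, since the annotation calls it a polymorphic pseudogene.

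Both embryos were of the B6NCrl strain and untreated, and the labels give each library as a biological replicate from the midbrain of a single pup, with the pups collected on different days. They are called embryo 1 and embryo 2. The labels give the sex as pooled, whereas Xist, the RNA of the inactive X chromosome, had 3 counts in embryo 1 and 20808 in embryo 2, and the Y-linked gene Eif2s3y had 1901 counts in embryo 1 and 0 in embryo 2. The gene rows held 31.7 × 10⁶ counts in embryo 1 and 29.2 × 10⁶ in embryo 2. With a single group of 2 libraries no test between groups was possible, no p-value is given, and SDs have n = 2.

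Clustered protocadherins are adhesion proteins of the neuronal surface that bind their own kind on a neighbouring cell. In the alpha and gamma clusters each variable first exon has its own promoter, codes for the extracellular, transmembrane and proximal cytoplasmic parts, and is spliced to constant exons shared by the whole cluster, while beta genes have no constant exons. Neurons choose few of the variable promoters each, with CTCF and cohesin taking part in the choice, and the set of isoforms on a cell is known for self-recognition of dendrites and axons. The last genes of the alpha and gamma clusters, called C-type, are known for more uniform use across cells. A bulk library sums over all cells, so fewer cells of a type and less RNA per cell cannot be told apart, nor can a promoter used in few cells be told from a weak one.

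All 3 clusters lie on the plus strand of chromosome 18 in the GRCm38 assembly. The alpha members span positions 36930184 to 37187661, the beta members 37264938 to 37524479 and the gamma members 37661793 to 37841873. Full-length alpha transcripts had 4 exons, a variable first exon of 2346 to 3028 bases and 2860 bases of further exons. Full-length gamma transcripts also had 4 exons, with a first exon of 2542 to 2961 bases and 2116 to 2119 bases of further exons. Of the 22 beta genes, 18 had single-exon transcripts alone.

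Nearly all members were present in both midbrains, at low levels. A level of at least 1 TPM (a read count scaled by transcript length and by library) in both libraries was met by 52 of the 57, against 59.5% of all protein-coding genes. These 52 were all 14 alpha members, 17 of the 22 beta members and all 21 gamma members. The level counts all transcripts of a gene. By coding transcripts alone, Pcdha11 at 0.97 TPM and Pcdhgb4 at 0.53 TPM would fall below it in embryo 2. The median member had 4.45 TPM, the median protein-coding gene 4.67 TPM, and the median protein-coding gene that met the 1 TPM level 20.3 TPM. Together the 57 members took 0.0423% of the TPM of the Ensembl gene rows, without spike-ins, in embryo 1 and 0.0388% in embryo 2.

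The gamma cluster held most of this RNA. Its summed level was 241 TPM in embryo 1 and 214 TPM in embryo 2, or 61.6% and 59.8% of the TPM of all members. The beta cluster summed to 79.0 TPM in embryo 1 and 73.1 TPM in embryo 2. The alpha cluster summed to 71.0 TPM in embryo 1 and 71.1 TPM in embryo 2. The 18 variable gamma genes without the C-type members summed to 138 TPM in embryo 1 and 110 TPM in embryo 2, and the 12 variable alpha genes to 63.3 TPM and 61.8 TPM. The median variable gamma gene (5.03 TPM) and the median variable alpha gene (5.71 TPM) stood close together, and the median beta gene had 3.02 TPM.

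**Figure D1:**
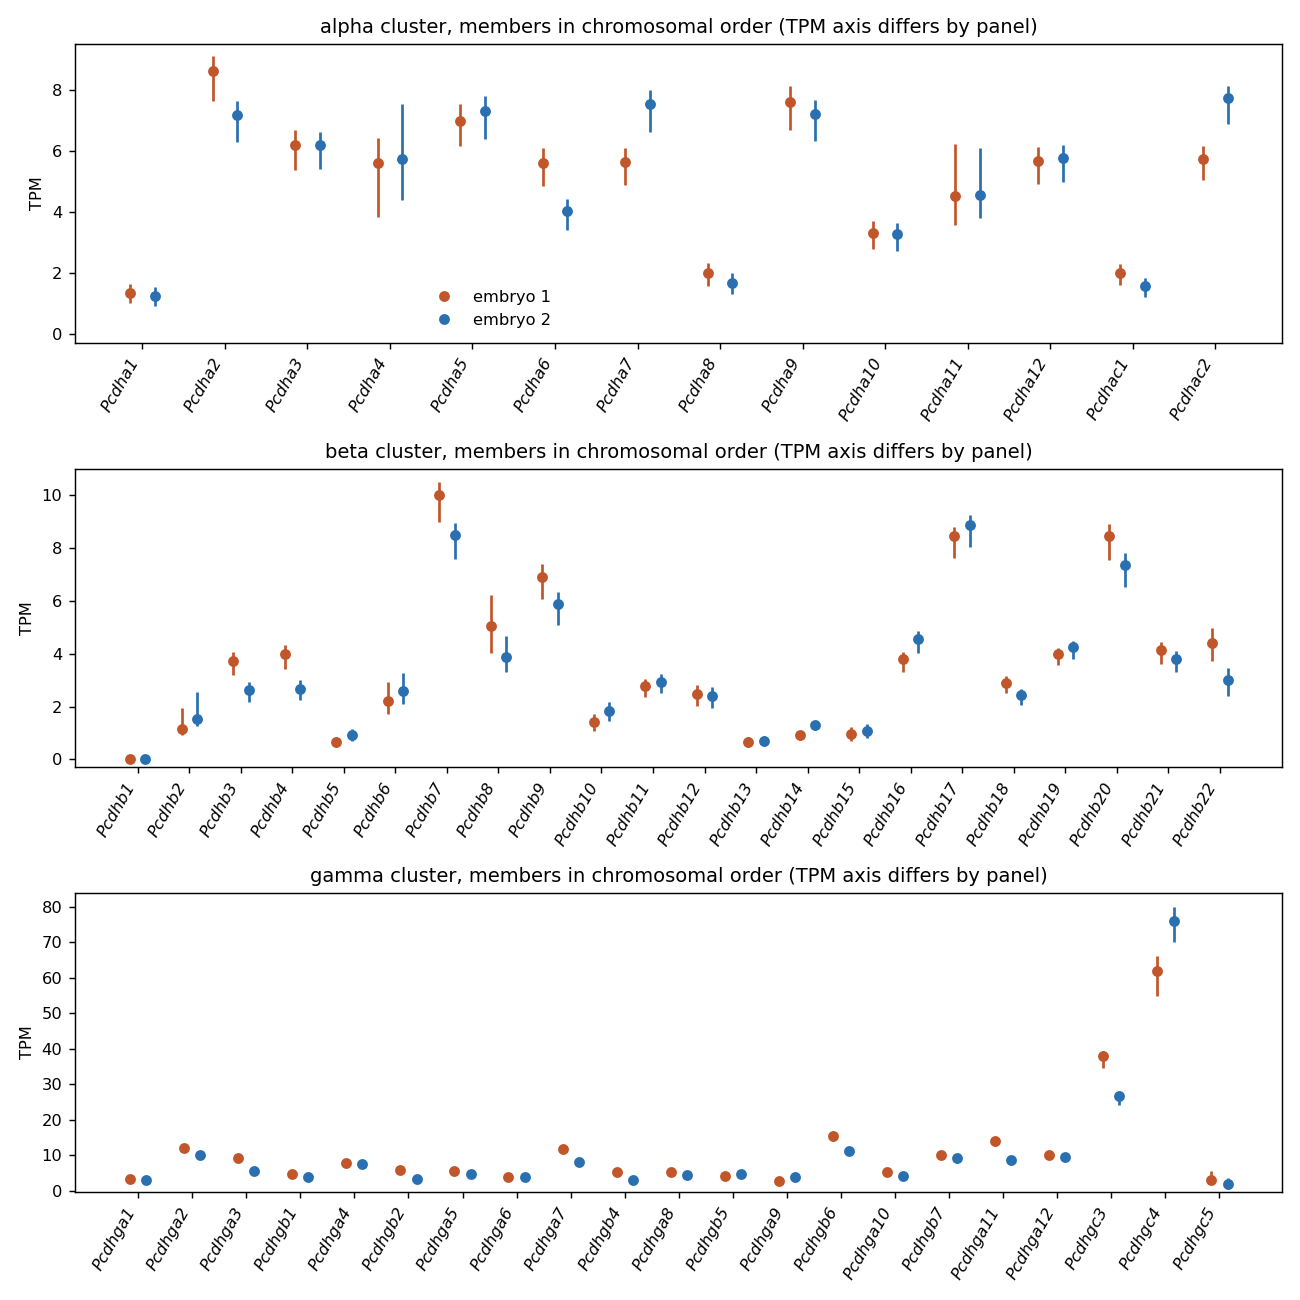
TPM of each clustered protocadherin, in chromosomal order within the alpha, beta and gamma clusters, for embryo 1 (left point) and embryo 2 (right point); vertical lines are the deposited TPM intervals, whose level the file header does not give. Pcdhgc4 stands at 61.9 TPM in embryo 1 and 76.1 TPM in embryo 2, while no alpha or beta member exceeds 10.0 TPM in either embryo.

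In the alpha cluster the leading genes were close in level. Pcdha2 had 8.64 TPM in embryo 1 and 7.18 TPM in embryo 2, Pcdha9 had 7.63 and 7.23 TPM, and Pcdha5 had 7.00 and 7.32 TPM. All 3 code for variable adhesion proteins, and the deposited interval of each in embryo 1 overlapped its interval in embryo 2. The leading gene differed by embryo, namely Pcdha2 with 12.2% of the cluster's TPM in embryo 1 and Pcdhac2 with 10.9% in embryo 2. The lowest were Pcdha1 at 1.35 TPM in embryo 1 and 1.23 TPM in embryo 2, Pcdhac1 at 1.98 and 1.55 TPM, and Pcdha8 at 1.98 and 1.68 TPM. The other 7 variable genes had means between 3.30 TPM for Pcdha10 and 6.61 TPM for Pcdha7. Pcdha11 was among them, at 4.54 TPM in embryo 1 and 4.55 TPM in embryo 2. Its coding transcripts held 2.08 and 0.97 TPM, and retained-intron transcripts the rest. Its coding mean of 1.525 TPM lay below the means of Pcdhac1 (1.765 TPM) and Pcdha8 (1.83 TPM). In embryo 1 its coding level stood above both. The highest alpha gene of a library was 6.40 times the lowest in embryo 1 and 6.29 times in embryo 2.

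The C-type alpha genes differed from each other. Pcdhac2, which in mice is known for the spacing of serotonergic axons, had 5.74 TPM in embryo 1 and 7.74 TPM in embryo 2. Pcdhac1 was at 1.98 and 1.55 TPM, below Pcdhac2 in both embryos. Together they held 10.9% of the alpha TPM in embryo 1 and 13.1% in embryo 2.

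In the beta cluster, Pcdhb7 had 10.0 TPM in embryo 1 and 8.50 TPM in embryo 2, Pcdhb17 had 8.43 and 8.85 TPM, and Pcdhb20 had 8.46 and 7.36 TPM. These 3 took 34.1% of the cluster's TPM in embryo 1 and 33.8% in embryo 2. The order of Pcdhb7 and Pcdhb17 differed between the embryos. The means of 14 further genes lay between 1.34 TPM for Pcdhb2 and 6.38 TPM for Pcdhb9. All 5 members below the 1 TPM level belonged to this cluster. Pcdhb1, whose promoter is known to lack the sequence element shared by most promoters of the clusters, had 1 count in embryo 1 and 0 counts in embryo 2, both under a floor of 3 counts. Pcdhb13 stood at 0.67 TPM in embryo 1 and 0.70 TPM in embryo 2, and Pcdhb5 at 0.65 and 0.94 TPM. Pcdhb14 at 0.91 and 1.32 TPM and Pcdhb15 at 0.97 and 1.08 TPM reached the level in embryo 2 alone.

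In the gamma cluster the A genes, 12 in number, summed to 91.5 TPM in embryo 1 and 74.2 TPM in embryo 2. The 6 B genes summed to 46.2 TPM in embryo 1 and 35.4 TPM in embryo 2. Among all of them Pcdhgb6 was highest, at 15.6 TPM in embryo 1 and 11.2 TPM in embryo 2. The lowest gamma members were the C-type gene Pcdhgc5 at 3.12 TPM in embryo 1 and 2.07 TPM in embryo 2, Pcdhga1 at 3.49 and 2.98 TPM, and Pcdhga9 at 2.66 and 3.91 TPM. The other 15 A and B genes had means between 3.90 TPM for Pcdhga6 and 11.5 TPM for Pcdhga11. Pcdhga9 was lowest in embryo 1 and Pcdhgc5 in embryo 2.

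The C-type gamma genes summed to 103.1 TPM in embryo 1 and 104.9 TPM in embryo 2, or 42.8% and 48.9% of the cluster. By expected counts, which are not divided by transcript length, they took 36.8% of the cluster in embryo 1 and 40.2% in embryo 2. Pcdhgc4, needed in mice for the survival of neurons, had 61.9 TPM in embryo 1 and 76.1 TPM in embryo 2. Pcdhgc3, which promotes dendrite branching in mouse cortical neurons and binds Axin1, had 38.1 TPM in embryo 1 and 26.7 TPM in embryo 2. Both stood above every other member in both libraries, and Pcdhgc5 stood near the bottom.

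The rank of Pcdhgc4 rests on which of its transcripts are counted. Its annotated transcript Pcdhgc4-203, labelled protein-coding, has a first exon of 153 bases followed by 2119 bases of constant exons, and 93.1% of its 100-base windows also occur in other members. That transcript was given 27.8 TPM in embryo 1 and 44.2 TPM in embryo 2, or 45.0% and 58.1% of the gene's TPM. The retained-intron transcript Pcdhgc4-202, none of whose windows occur elsewhere, was given 20.9 TPM in embryo 1 and 20.8 TPM in embryo 2. The full-length coding transcript Pcdhgc4-201 was left with 13.1 TPM in embryo 1 and 11.2 TPM in embryo 2. Pcdhgc4-203 was the only transcript of 87 in the 3 clusters that had at least 80% of its windows shared with another member.

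Without Pcdhgc4-203 the C-type share of the gamma TPM averaged 35.5%, against 45.9% with it. By mean level the full-length coding transcripts were led by Pcdhgc3-201, then Pcdhgb6-201, then Pcdhgc4-201. Pcdhgc3-201 had 29.3 TPM in embryo 1 and 17.0 TPM in embryo 2, and Pcdhgb6-201 had 15.6 and 11.2 TPM. In embryo 1 Pcdhga11-201, at 14.1 TPM, also stood above Pcdhgc4-201, whereas in embryo 2 it had 8.82 TPM and stood below. The mean of Pcdhgb6-201 was 13.4 ± 3.08 TPM and that of Pcdhgc4-201 was 12.1 ± 1.37 TPM (SD, n = 2 each), a gap within the spread between the embryos. A further transcript of Pcdhgc3, annotated for nonsense-mediated decay, had 8.49 TPM in embryo 1 and 9.43 TPM in embryo 2. Pcdhgc5-201 had 1.73 TPM in embryo 1 and 1.32 TPM in embryo 2.

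**Figure D2:**
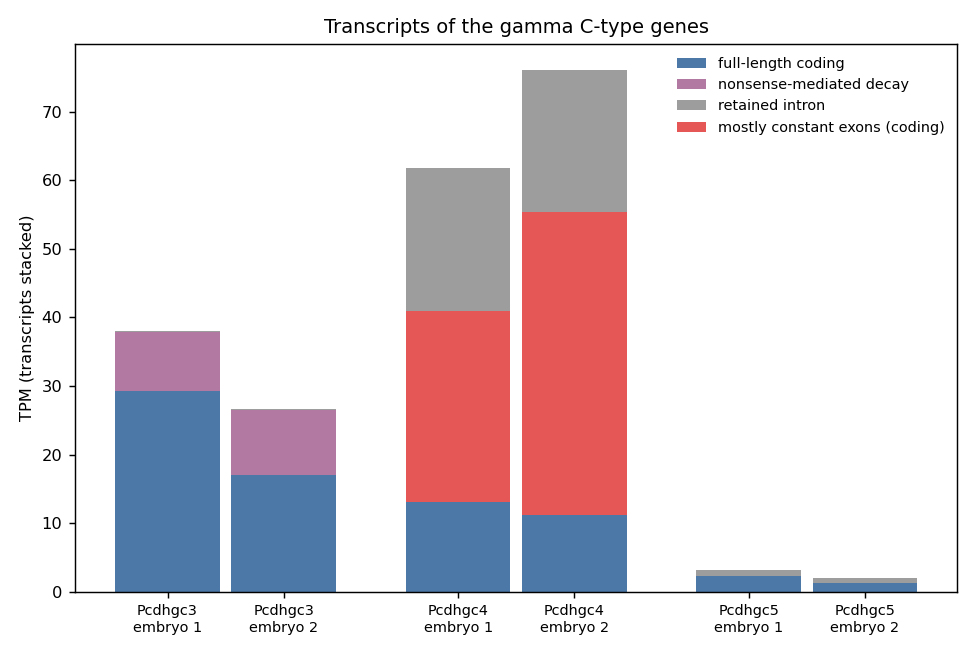
TPM of the transcripts of Pcdhgc3, Pcdhgc4 and Pcdhgc5, stacked by annotated type, with embryo 1 left of embryo 2 for each gene. The mostly constant-exon transcript of Pcdhgc4 takes 27.8 TPM in embryo 1 and 44.2 TPM in embryo 2, more than the gene's full-length coding transcript at 13.1 TPM and 11.2 TPM.

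Noncoding transcript types took a larger share in gamma than in alpha. All 26 beta transcripts are annotated as protein-coding, so beta could have no such share and says nothing here. Retained-intron transcripts held 11.9% of the gamma TPM in embryo 1 and 12.8% in embryo 2, and 5.76% and 7.32% of the alpha TPM. Of the gamma total, Pcdhgc4-202 was the greater part, with 20.9 of 28.6 TPM in embryo 1 and 20.8 of 27.5 TPM in embryo 2. Without that transcript the retained-intron share of gamma would lie below that of alpha in both embryos. Total RNA libraries also hold unspliced RNA, and its part in these levels was not tested.

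Constant exons limit how surely a read can be given to a member. Of the 100-base windows of a gene's transcripts, the median alpha member had 43.8% found in no other gene, the median gamma member 55.6% and the median beta member 99.8%. The deposited posterior SD, which measures the uncertainty of the assignment, had a median of 4.04% of the expected count in embryo 1 and 4.41% in embryo 2 for alpha members. It was 3.78% and 4.11% for gamma members, and 0.195% and 0.152% for beta members. The median over all genes with at least 100 summed counts was 0% in both embryos.

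The members with least sequence of their own also overlap other annotated genes. Pcdhga10 had 2.14% of windows found nowhere else and overlaps Gm26672, and Pcdha4 had 10.0% and overlaps the read-through gene Gm42416. The posterior SD of Pcdha4 was the largest of any member, at 12.3% of its count in embryo 1 and 13.4% in embryo 2. Pcdhb12, with 37.7% of windows its own, was the lowest in the beta cluster and overlaps the antisense gene Gm37446. Whether the libraries kept the strand is not stated here, and windows were compared on either strand. How well reads from a member and from an overlapping gene on the opposite strand were told apart is therefore not known here.

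**Figure D3:**
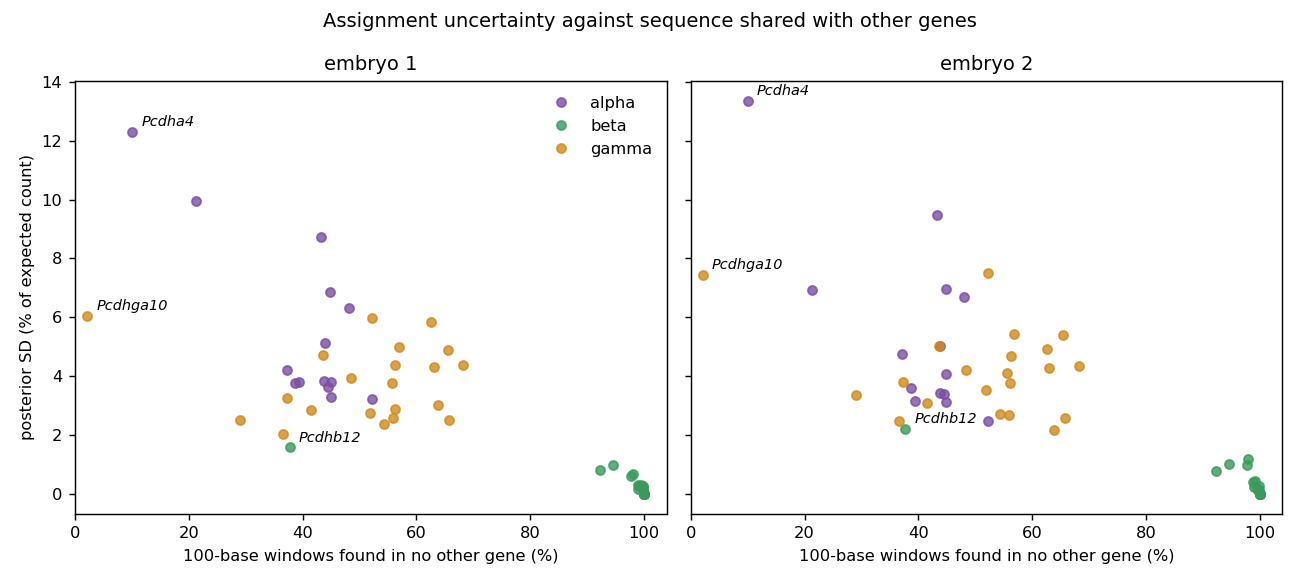
Posterior SD as a percent of the expected count against the percent of 100-base windows found in no other gene, for the 55 members with at least 100 summed counts, in embryo 1 (left) and embryo 2 (right). Beta members lie at the lower right, with a median posterior SD of 0.195% in embryo 1 and 0.152% in embryo 2, and Pcdha4 is highest at 12.3% and 13.4%.

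The division of a gene's reads among its transcripts was uncertain for several members. Pcdha2-201 had 2.93 TPM in embryo 1 and 5.11 TPM in embryo 2, and Pcdha2-202 had 5.71 and 2.07 TPM. These 2 transcripts carry almost the same first exon and differ in the 3' exons, and their deposited intervals overlapped between the embryos. All of Pcdha1 was given to Pcdha1-202, at 1.35 TPM in embryo 1 and 1.23 TPM in embryo 2, and Pcdha1-201 was listed at 0. For Pcdhgb4, the member with the largest ratio between the embryos, the intervals of the coding transcript lay apart. Its coding transcript Pcdhgb4-202 had 3.48 TPM in embryo 1 (deposited interval 2.56 to 4.10) and 0.53 TPM in embryo 2 (0.17 to 1.02), while its processed transcript Pcdhgb4-201 had 1.79 and 2.60 TPM.

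Position along the clusters went with level weakly, if at all. The first 6 variable alpha genes summed to 34.4 TPM in embryo 1 and 31.7 TPM in embryo 2, and the last 6 to 28.8 and 30.1 TPM. The first 11 beta genes summed to 37.8 TPM in embryo 1 and 33.3 TPM in embryo 2, and the last 11 to 41.1 and 39.8 TPM. The first 9 variable gamma genes summed to 64.8 TPM in embryo 1 and 50.4 TPM in embryo 2, and the last 9 to 72.9 and 59.2 TPM. Spearman's rho between position and TPM, given across genes as a description, was -0.11 in embryo 1 and -0.01 in embryo 2 for the 12 variable alpha genes. It was 0.39 and 0.38 for the 22 beta genes, and 0.23 and 0.35 for the 18 variable gamma genes. Genes of a cluster share promoter sequence and library, and in alpha and gamma also constant exons, so they are not independent points.

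The order of members was similar in the embryos. Spearman's rho between the TPM of embryo 1 and that of embryo 2, across genes of libraries made the same way, was 0.95 over the 57 members, 0.96 over the beta genes, 0.85 over the variable alpha genes and 0.85 over the variable gamma genes.

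Between the embryos, ratios were taken as embryo 1 over embryo 2 from expected counts scaled with TMM, a method that sets the bulk of genes equal. The gamma cluster had 19039 counts in embryo 1 and 15949 in embryo 2, a ratio of 1.08 (95% interval 1.05 to 1.10). The alpha cluster had 6851 counts in embryo 1 and 6864 in embryo 2, a ratio of 0.901 (0.871 to 0.932). The beta cluster had 5886 and 5675 counts, a ratio of 0.936 (0.902 to 0.971), and its log2 ratio of -0.10 became 0.02 with spike-in scaling and 0.11 with TPM. These intervals cover counting error only, not differences between animals. Spike-in scaling moved the median of all genes by 0.11 on the log2 scale and TPM by 0.13. Relative to that median a single factor per library cancels, so spike-in scaling must give the same value as TMM and only TPM can differ. The beta log2 ratio relative to the median of all genes was -0.09 with spike-ins and -0.02 with TPM. Relative to that median, the gamma log2 ratio was 0.11 with spike-ins and 0.04 with TPM, and the alpha log2 ratio was -0.15 and -0.13.

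No member differed by 2-fold or more. Of the 57, 55 had at least 100 summed counts (Pcdhb1 and Pcdhb13 did not), and 0 of these 55 passed 2-fold, against 4.79% of 14011 genes (3.35% higher in embryo 1 and 1.43% higher in embryo 2). At 1.5-fold, a limit chosen after seeing the data, 5 of 55 passed on log2 ratios with a prior count of 0.5, against 14.2% of all genes. Without that prior count Pcdhb2, at a ratio of 0.666, would also pass. Of the 5, Pcdhgb4 and Pcdhgb2 were higher in embryo 1, against 8.56% of all genes, and Pcdhga9, Pcdhb14 and Pcdhb5 were lower in embryo 1, against 5.66% of all genes. The median absolute log2 ratio was 0.20 for the members and 0.23 for all genes. The deposited TPM intervals of the embryos did not overlap for 18 of the 55 members, against 45.6% of all genes. In embryo 1, 15 of 21 gamma members, 4 of 14 alpha members and 7 of 20 beta members had the higher scaled count, against 49.4% of all genes. Relative to the median of all genes these counts were 15, 5 and 8 with TPM. With spike-in scaling they stayed 15, 4 and 7, which was fixed in advance, since a single factor per library cancels there.

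The largest ratios were in single gamma and beta genes. Pcdhgb4 had 427 counts in embryo 1 and 225 in embryo 2, a ratio of 1.72 (1.45 to 2.02). Pcdhgb2 had 444 and 243 counts, a ratio of 1.65 (1.41 to 1.94). Pcdhga9 lay the other way, with 206 and 307 counts and a ratio of 0.607 (0.505 to 0.725).

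In the beta cluster Pcdhb14 had 150 counts in embryo 1 and 217 in embryo 2, a ratio of 0.624 (0.503 to 0.772). Pcdhb5 had 43 and 62 counts, a ratio of 0.626 (0.414 to 0.939), and Pcdhb2 had 59 and 80 counts, a ratio of 0.666 (0.467 to 0.944). All 3 stood at 1.54 TPM or less in both embryos, and the intervals of Pcdhb5 and Pcdhb2 are wide because few reads lie behind them.

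Of the alpha genes, Pcdhac2 had 637 counts in embryo 1 and 857 in embryo 2, a ratio of 0.671 (0.605 to 0.744). Pcdha7 had 568 and 756 counts, a ratio of 0.678 (0.607 to 0.757), and Pcdha6 had 566 and 382 counts, a ratio of 1.34 (1.17 to 1.53). The intervals of these 3 lay on 1 side of equal. The C-type gamma genes went apart, with a ratio of 0.796 (0.761 to 0.833) for Pcdhgc4 and 1.33 (1.26 to 1.41) for Pcdhgc3. Within Pcdhgc4 the ratio was 0.570 (0.529 to 0.614) for the mostly constant-exon transcript and 1.06 (0.975 to 1.15) for the full-length coding transcript. Within Pcdhgc3 it was 1.56 (1.46 to 1.66) for the full-length coding transcript and 0.813 (0.725 to 0.913) for the one annotated for nonsense-mediated decay. The deposited TPM intervals, which also carry the uncertainty of assignment, lay apart between the embryos for the mostly constant-exon transcript of Pcdhgc4 and the full-length one of Pcdhgc3, and overlapped for the other 2 transcripts (for the decay transcript, 3.99 to 11.5 TPM in embryo 1 and 6.54 to 11.9 TPM in embryo 2).

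**Figure D4:**
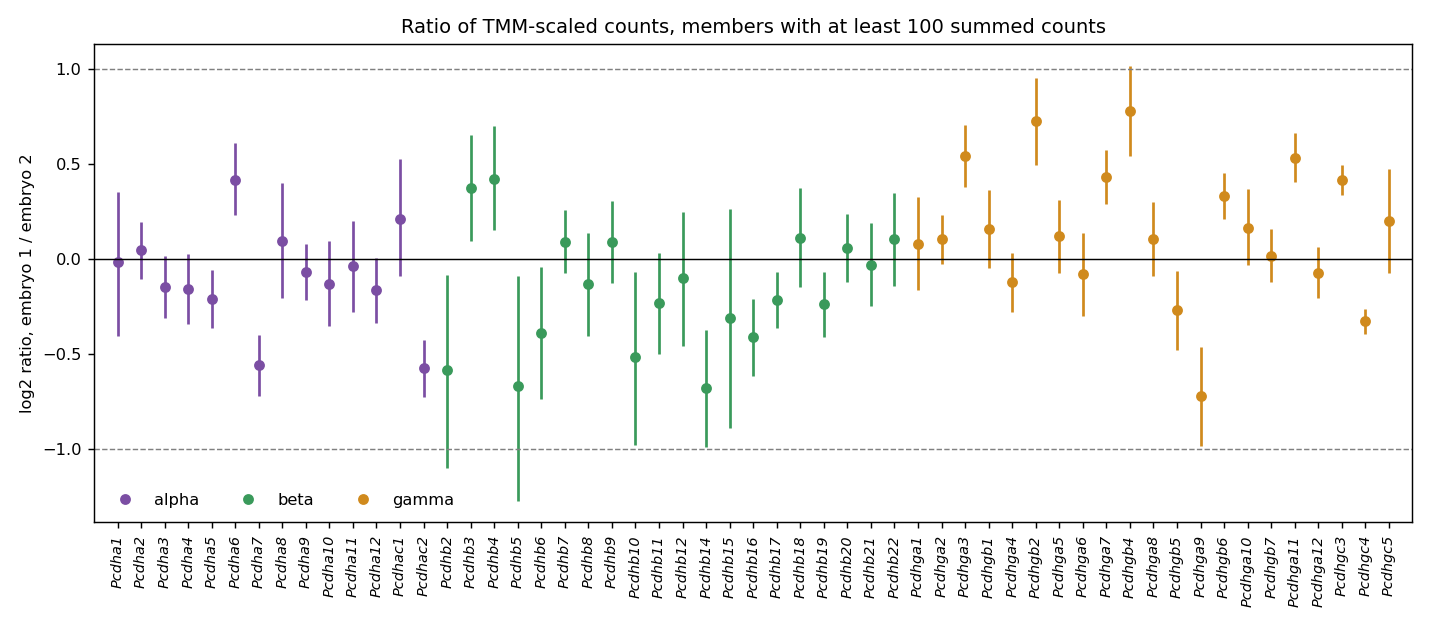
Log2 ratio of TMM-scaled expected counts, embryo 1 over embryo 2, for the 55 members with at least 100 summed counts in chromosomal order; vertical lines are 95% counting intervals, and dashed lines mark 2-fold. All 55 points lie inside the dashed lines, and 15 of 21 gamma members lie above 0, against 4 of 14 alpha and 7 of 20 beta members; with spike-in or TPM scaling more members of each cluster lie above 0 (17, 7 and 9 with spike-ins, 18, 7 and 10 with TPM).

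Markers of several other cell types had different levels in the embryos. All 7 mesenchyme and meninges markers were at least 2-fold higher in embryo 1, against 3.35% of all genes, and their summed level was 402 TPM in embryo 1 and 10.0 TPM in embryo 2. The 5 choroid plexus markers summed to 106 and 6.45 TPM, of which Ttr held 96.3 and 0.37 TPM, and the 5 cell cycle markers summed to 240 and 114 TPM. Endothelial markers summed to 115 and 75.6 TPM, microglial markers to 45.5 and 22.0 TPM and erythroid markers to 8322 and 5471 TPM. The 9 neuronal markers, all present, summed to 3785 TPM in embryo 1 and 3929 TPM in embryo 2, and 2 of the 9 had the higher scaled count in embryo 1, against 49.4% of all genes. The 7 progenitor markers summed to 1979 and 2081 TPM and the 5 oligodendrocyte lineage markers to 81.1 and 87.7 TPM. The 5 serotonergic markers summed to 127 and 97.6 TPM, of which Gata3 held 97.0 and 69.2 TPM. Of these 5, 3 had the higher scaled count in embryo 1, against 49.4% of all genes, while Tph2 and Slc6a4 were lower in embryo 1. The part of these cells, and of sex, in the ratios of the protocadherins was not tested.

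Genes that act on the choice of protocadherin promoter were expressed throughout. All 20 in the list met the 1 TPM level, with a median of 34.9 TPM. Ctcf, whose protein anchors the loops between promoter and enhancer, had 74.7 TPM in embryo 1 and 56.8 TPM in embryo 2. The cohesin subunits Smc3 and Rad21 had 54.6 and 54.7 TPM in embryo 1 and 51.8 and 42.5 TPM in embryo 2. Trim28, a corepressor that recruits the histone methyltransferase Setdb1, was highest at 254 TPM in embryo 1 and 234 TPM in embryo 2. Smchd1, which takes part in silencing of the clusters, had 36.5 TPM in embryo 1 and 27.9 TPM in embryo 2. Dnmt3b, the DNA methyltransferase known to methylate variable promoters in early embryos, was lowest of the list at 2.60 and 2.43 TPM. Of the 20 genes, 0 differed by 2-fold, near the 4.79% of all genes. The scaled count was higher in embryo 1 for 17 of the 20, against 49.4% of all genes, with a median log2 ratio of 0.22 against -0.01 over all genes. Relative to the median of all genes that number was 15 with TPM. It was 17 with spike-in scaling, whose single factor per library cancels there.

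Genes for partners and processing of the proteins were likewise present. Of 18 genes, 17 met the 1 TPM level, with a median of 53.9 TPM, and the exception was the kinase gene Ptk2b at 0.69 TPM in embryo 1 and 0.59 TPM in embryo 2. The highest was Marcks, an actin-binding substrate of protein kinase C, at 325 TPM in each embryo. Rac1, a small GTPase of the actin cytoskeleton, had 285 TPM in embryo 1 and 257 TPM in embryo 2. Wasf1, a subunit of the WAVE complex that binds protocadherin tails, had 93.8 and 74.7 TPM. Of the 17 with at least 100 summed counts, 0 differed by 2-fold, against 4.79% of all genes, which is also near that share.

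The protocadherin genes outside the clusters had a higher median level, 23.0 TPM over 12 genes, against 4.45 TPM for the clustered members. All 12 met the 1 TPM level, but the ranges overlapped, since Pcdh12 averaged 2.54 TPM and the clustered Pcdhgc4 averaged 69.0 TPM. Pcdh9 had 105 TPM in embryo 1 and 83.1 TPM in embryo 2, Pcdh8 had 47.2 and 47.8 TPM, and Pcdh18 had 42.9 and 25.3 TPM. Summed, the 57 clustered members had 391 TPM in embryo 1 and 359 TPM in embryo 2, and the 12 others 331 and 299 TPM. Of the 12, 0 differed by 2-fold, against 4.79% of all genes, so the count is near the share over all genes.

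**Figure D5:**
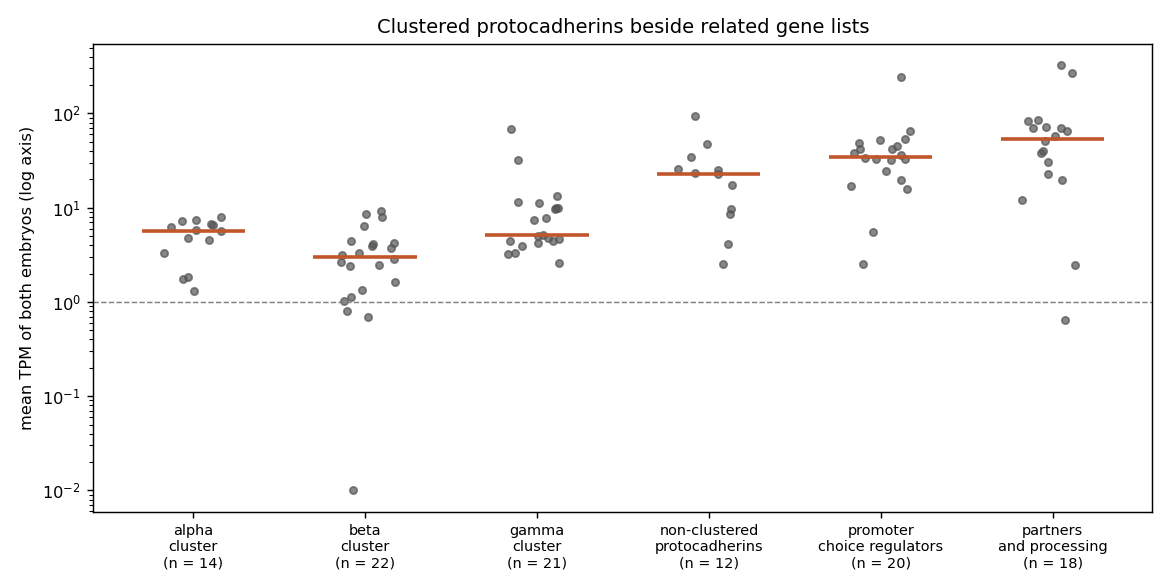
Mean TPM of both embryos (log axis) for each gene of the alpha, beta and gamma clusters, of the non-clustered protocadherins and of 2 related gene lists; horizontal bars are medians and the dashed line is 1 TPM. The medians are 5.71, 3.02 and 5.11 TPM for the clusters and 23.0, 34.9 and 53.9 TPM for the other lists.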

How the data were processed

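Total RNA of embryonic day 14.5 midbrain was sequenced in 2 libraries. Per the labels, RNA over 200 nt was extracted and 10 ng entered each library, with ERCC spike-ins. The deposited tables rest on the mm10 assembly and GENCODE M4, per the deposited text records; the sources used here name no quantifier. The authors deposited TPM, scaled over all rows with spike-ins, and expected counts, which divide reads that fit several places. Coverage-type signal columns deposited beside them hold posterior SDs and TPM intervals. Symbols, types and coordinates came from GENCODE M21 and matched 42462 of 43346 Ensembl rows. In M21, 2 rows carry the symbol Pcdha11, and the one that RefSeq links to Pcdha10 is called so here. Library sizes left out the spike-ins (3.15% of counts in embryo 1, 3.32% in embryo 2) and unnamed rows with 6 and 14 counts.

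Ratios used expected counts, rounded for TMM in edgeR 4.0.16, and exact conditional binomial 95% intervals. Log2 ratios of single genes had a prior count of 0.5, whereas ratios printed with an interval and ratios of sums had none. DESeq2 1.42.0 size factors, gene totals and spike-in totals were alternatives. In simulated data for embryo 1 over embryo 2 with 14012 genes, 200 of 200 changed genes had the right sign. Those counts held counting error alone and changes of at least 2-fold, so smaller ratios, errors of assignment and differences between animals were not tried. Windows of 100 bases were compared with all M21 transcripts in the files. No sequences are reported here. Named with values are the C-type members, the 3 highest and 3 lowest of each cluster and the 3 with the largest ratio. Also named are the 3 highest of the regulator, partner and non-clustered lists, and Ctcf, Rad21, Smchd1 and Dnmt3b. Transcripts, overlapping genes, Ttr, Gata3, Tph2, Slc6a4 and other members were chosen after their values were seen. Members and lists were chosen with earlier results of these data known.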

Additional observations from a re-analysis of the deposited data

How the results depend on the processing

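No paired analysis was possible because the 2 libraries form a single group. With 2 libraries, leaving out either returns the other library's own value, which says nothing of stability; the alpha position rho of -0.063 was then -0.014 or -0.11, and 54 or 52 members met the 1 TPM level. Posterior mean TPM gave 69.5 TPM for the alpha sum and a position rho of 0.38 for beta. With it Pcdhgc5 averaged 3.31 TPM, above Pcdhga1 at 3.13 TPM and Pcdhga9 at 3.22 TPM. The order of these lowest gamma members thus depended on the estimate. Rescaling TPM without spike-ins gave sums of 76.9 TPM for alpha, 82.4 for beta and 247 for gamma. Protein-coding transcripts alone gave 66.4 TPM for alpha and 188 for gamma. Leaving out mostly constant-exon transcripts, chosen after seeing the data, gave 192 TPM for gamma and a C-type share of 35.5%, and expected counts gave a share of 38.5%. The log2 ratios of sums, embryo 1 over embryo 2, with spike-in scaling were -0.040 for alpha, 0.016 for beta, 0.22 for gamma and 0.12 for all members, against -0.15, -0.10, 0.11 and 0.01 with TMM. With TPM they were -0.0016, 0.11, 0.17 and 0.12. The median of the members' log2 ratios was -0.10 for alpha, -0.17 for beta and -0.032 for all. DESeq2 size factors gave 0.033 for all members and gene totals 0.039. The number over 2-fold was 1 with no count minimum, namely Pcdhb1 with 1 and 0 counts, and 5 members passed 1.5-fold. The causes were not tested. Depth limits the lowest beta genes, where 43 to 80 counts lie behind Pcdhb5 and Pcdhb2, and the depth cannot resolve reads over constant exons.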

Other observations

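The locus holds other annotated genes beside the 57 members. The antisense genes, 10 in number, summed to 9.81 TPM in embryo 1 and 10.4 TPM in embryo 2, and 2 of them met the 1 TPM level. Taf7, a subunit of the general transcription factor TFIID on the minus strand, had 20.0 TPM in embryo 1 and 15.9 TPM in embryo 2, above every alpha and beta member. Gm10544, annotated as a processed transcript on the minus strand, had 4.30 and 4.22 TPM, and Gm26672 had 5.14 and 5.35 TPM. The polymorphic pseudogene Pcdhgb8 had 1.70 TPM in embryo 1 and 1.43 TPM in embryo 2.

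The read-through gene Gm42416, which overlaps Pcdha4, had 25.9 counts in embryo 1 and 90.7 in embryo 2, with posterior SDs of 33.5 and 43.1 counts. The uncertainty is thus above the count in embryo 1, and the deposited TPM interval reached 0 in both embryos.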
